A study of Mus musculus with 22 samples.

Results

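The messenger RNAs of 10 secreted products of activated T cells, the cytokine genes Il2, Il3, Csf2, Ifng, Tnf and Lta and the chemokine genes Xcl1, Ccl3, Ccl4 and Ccl5, were followed in mouse CD8+ T cells. They were chosen by name as effector cytokine and chemokine genes and matched by gene identifier among the 46603 genes of the count table. All 10 had enough counts to be among the 21183 genes tested. The low counts of some of them in naive cells are given beside their values.

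A naive CD8+ T cell holds little cytokine mRNA. When its antigen receptor and the costimulatory receptor CD28 are engaged, NFAT, AP-1 and NF-kB factors switch on genes such as Il2, while production of interferon-gamma also depends on T-box factors and on time in culture. Many cytokine mRNAs are short-lived because AU-rich stretches in their 3′ UTR recruit decay proteins such as tristetraprolin, so their level reflects synthesis and decay together. Among the products, IL-2 drives T cell growth, IL-3 and GM-CSF (Csf2) act on myeloid cells, interferon-gamma activates macrophages and antigen presentation, TNF and lymphotoxin-alpha signal through TNF receptors, XCL1 attracts cross-presenting dendritic cells, and CCL3, CCL4 and CCL5 attract T cells and monocytes.

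The 3 genotypes were a conditional Tcaim knock-in (KI, line Tcaim KI Cd4Cre, genotype hocre), animals labelled as conditional knockouts (KO, line Tcaim KO Cd4Cre, genotype hocre) and controls (wt, line Tcaim KI Cd4Cre, genotype wtcre). Going by the series title, Tcaim is linked to contacts between mitochondria and the endoplasmic reticulum and to effector differentiation. Naive CD8+ T cells, enriched magnetically from spleens and lymph nodes by depleting other cells, were sequenced as isolated (naive) or after 24 h or 48 h with 2 µg/ml plate-bound anti-CD3 and 1 µg/ml soluble anti-CD28. There were 22 libraries from 8 mice. The 3 wt and 3 KI mice each gave a naive, a 24 h and a 48 h library, and the 2 KO mice each gave a naive and a 48 h library. All lines carry the Cd4Cre label, for a recombinase driven by a gene that is active in developing T cells of both the CD4 and the CD8 lineage, and no control of the KO line was used here. Replicates are numbered by experiment, which was 1, 3 or 5. Wt and KI mice were male in experiments 1 and 3 and female in experiment 5, so in them sex and experiment cannot be told apart, and both KO mice, of experiments 1 and 5, were female.

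Libraries held 62551905 to 93489115 counts. Levels are given as CPM, which relates the count to the library's scaled total, and a count of 3 is worth 0.0324 to 0.0475 CPM. Markers of CD8+ T cells summed to 2680 to 5070 CPM in all libraries. Tcaim was at 138 to 260 CPM in KI and at 8.38 to 15.2 CPM in wt libraries. It was at 14.9 and 19.6 CPM in the naive libraries labelled KO and at 11.7 and 5.99 CPM at 48 h (replicates 1 and 5), so of these 4 only the last lay below the wt range. They are therefore called libraries labelled KO. Replicate 1 of that group stood apart. Its naive library had 1840 CPM of B cell markers against 206 to 662 CPM in the other naive libraries, and 397 CPM of CD4+ T cell markers against 83.8 to 157 CPM. The tests of members that use this group are given with this mouse and, where a call or a called value moves by over 1.5 times, also without it.

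The 250 bases before the RefSeq gene start (build GRCm38.p6) could be read for 8 of the members. Ccl4 and Ccl5 had no entry. Those of Il2, Ifng, Tnf and Xcl1 are shown as examples. In wt Il2 and Xcl1 rose early and Ifng late, and Tnf had a smaller rise than these. Each runs 5′ to 3′ on the gene's strand, and capitals mark matches to the motifs searched.

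Il2, chr3:37125955-37126204, minus strand: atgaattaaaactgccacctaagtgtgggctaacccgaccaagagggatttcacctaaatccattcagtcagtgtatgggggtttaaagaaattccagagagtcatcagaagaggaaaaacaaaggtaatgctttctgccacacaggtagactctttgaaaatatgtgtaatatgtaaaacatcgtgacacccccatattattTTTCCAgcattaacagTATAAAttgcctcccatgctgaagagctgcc
Ifng, chr10:118440796-118441045, plus strand: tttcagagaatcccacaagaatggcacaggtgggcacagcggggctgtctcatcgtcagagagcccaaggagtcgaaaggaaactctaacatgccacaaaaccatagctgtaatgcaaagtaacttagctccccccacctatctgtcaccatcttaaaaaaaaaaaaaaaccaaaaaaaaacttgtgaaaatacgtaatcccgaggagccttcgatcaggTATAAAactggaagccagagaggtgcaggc
Tnf, chr17:35202008-35202257, minus strand: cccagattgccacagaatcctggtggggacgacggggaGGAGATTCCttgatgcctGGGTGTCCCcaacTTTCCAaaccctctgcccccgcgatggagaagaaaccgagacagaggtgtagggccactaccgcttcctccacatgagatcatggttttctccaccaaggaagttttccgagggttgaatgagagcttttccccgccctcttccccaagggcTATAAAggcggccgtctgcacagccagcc
Xcl1, chr1:164935523-164935772, minus strand: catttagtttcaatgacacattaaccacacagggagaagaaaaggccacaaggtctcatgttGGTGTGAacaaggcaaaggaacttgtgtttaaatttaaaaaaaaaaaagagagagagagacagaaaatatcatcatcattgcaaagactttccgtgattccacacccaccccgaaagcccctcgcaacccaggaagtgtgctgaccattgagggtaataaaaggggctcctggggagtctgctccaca

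The motifs were searched on both strands, and N stands for any base. The TATA box letters TATAAA lay 31, 30 and 29 bases before the start of Il2, Ifng and Tnf, and also in the Lta window, 4 of 8 members, against 12.4% of all 32851 RefSeq promoters. The NFAT core TGGAAA was found for Il2, Tnf, Il3 and Csf2 (18.6% of all promoters). It read as TTTCCA on the printed strand of Il2 and Tnf. The NF-kB letters GGNNNTNCC were found at 2 places before Tnf and at 1 before Il3 (39.3% of all promoters), where they overlap the CK-1 letters GAGNTTCCA (1.3% of all promoters). The T-box letters GGTGTGA were found for Xcl1 alone (3.3% of all promoters). The AP-1 letters TGANTCA were in none of the 8 windows (6.7% of all promoters). The RefSeq start of Csf2 lies upstream of the start of the deposited gene span, so its window covers other bases than one set at the latter start.

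The 3′ UTRs, taken from the GENCODE transcript with the longest one, differed in their AU-rich pentamers. The pentamer ATTTA occurred 9 times in Csf2, 8 in Tnf, 7 in Il2, 6 in Ifng, 5 in Ccl3, 3 in Lta, 2 in Ccl4 and 1 time each in Xcl1 and Il3, and it was absent from Ccl5. The densest stretch of at most 30 bases is shown for the 4 genes with the most pentamers, in DNA letters with the pentamers in capitals.

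Csf2, chr11:54247329-54247349, minus strand: ATTTATTTATTTATTTATTTA
Tnf, chr17:35199679-35199705, minus strand: ATTTAttATTTATTTAttATTTATTTA
Il2, chr3:37121040-37121067, minus strand: ATTTATTTAaatATTTAactttaATTTA
Ifng, chr10:118445335-118445359, plus strand: ATTTAttaatATTTAaaactATTTA

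The nonamer TTATTTATT, the core of the element bound by tristetraprolin, was present in the 3′ UTRs of Tnf, Csf2, Il2 and Lta, 4 of 10 members, against 7.7% of 21027 genes with a 3′ UTR. The 4 genes with the fewest pentamers, Ccl5, Xcl1, Il3 and Ccl4, also had the shortest 3′ UTRs, of 199, 141, 101 and 302 bases, against a median of 960 bases over all genes.

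The order of the mRNA levels changed with stimulation. Levels of different genes were compared on the FPKM scale, which is per length. In naive wt cells Ccl5 was highest at 64.2 ± 31.4 FPKM (SD, n = 3 here and for the other means of this paragraph), followed by Ccl3 at 20.8 ± 11.2, Ccl4 at 18.6 ± 11.6, Xcl1 at 13.8 ± 4.13 and Lta at 12.5 ± 0.518, each of which overlapped its neighbour. Tnf (10.1 ± 1.59) and Ifng (6 ± 3.49) came next and overlapped as well. Csf2 (0.0909 ± 0.06), Il2 (0.0416 ± 0.0506) and Il3 (0 in each library) were at the bottom. At 24 h Xcl1 was highest at 368 ± 146 FPKM, with no overlap with Ccl4 at 78.2 ± 43.5. At 48 h Xcl1 stood at 558 ± 306, Ccl4 at 138 ± 148, Ccl3 at 109 ± 111, Ifng at 69.5 ± 48.1, Lta at 68.0 ± 30.7 and Tnf at 27.5 ± 15.3 FPKM. Of these only Xcl1 and Ccl4 did not overlap as neighbours, and Tnf did not overlap the next gene. Ccl5 had moved to the seventh place with 7.11 ± 2.61, above Il2 at 3.31 ± 3.37, Csf2 at 2.83 ± 2.45 and Il3 at 0.503 ± 0.467. KI cells had the same first gene at each time, Ccl5 naive (46.2 ± 11.8), Xcl1 at 24 h (433 ± 156) and Xcl1 at 48 h (853 ± 445 FPKM). Ifng in KI cells at 48 h was at 14.6 ± 13.6 FPKM, in the sixth place and overlapping Tnf and Ccl5.

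**Figure D1:**
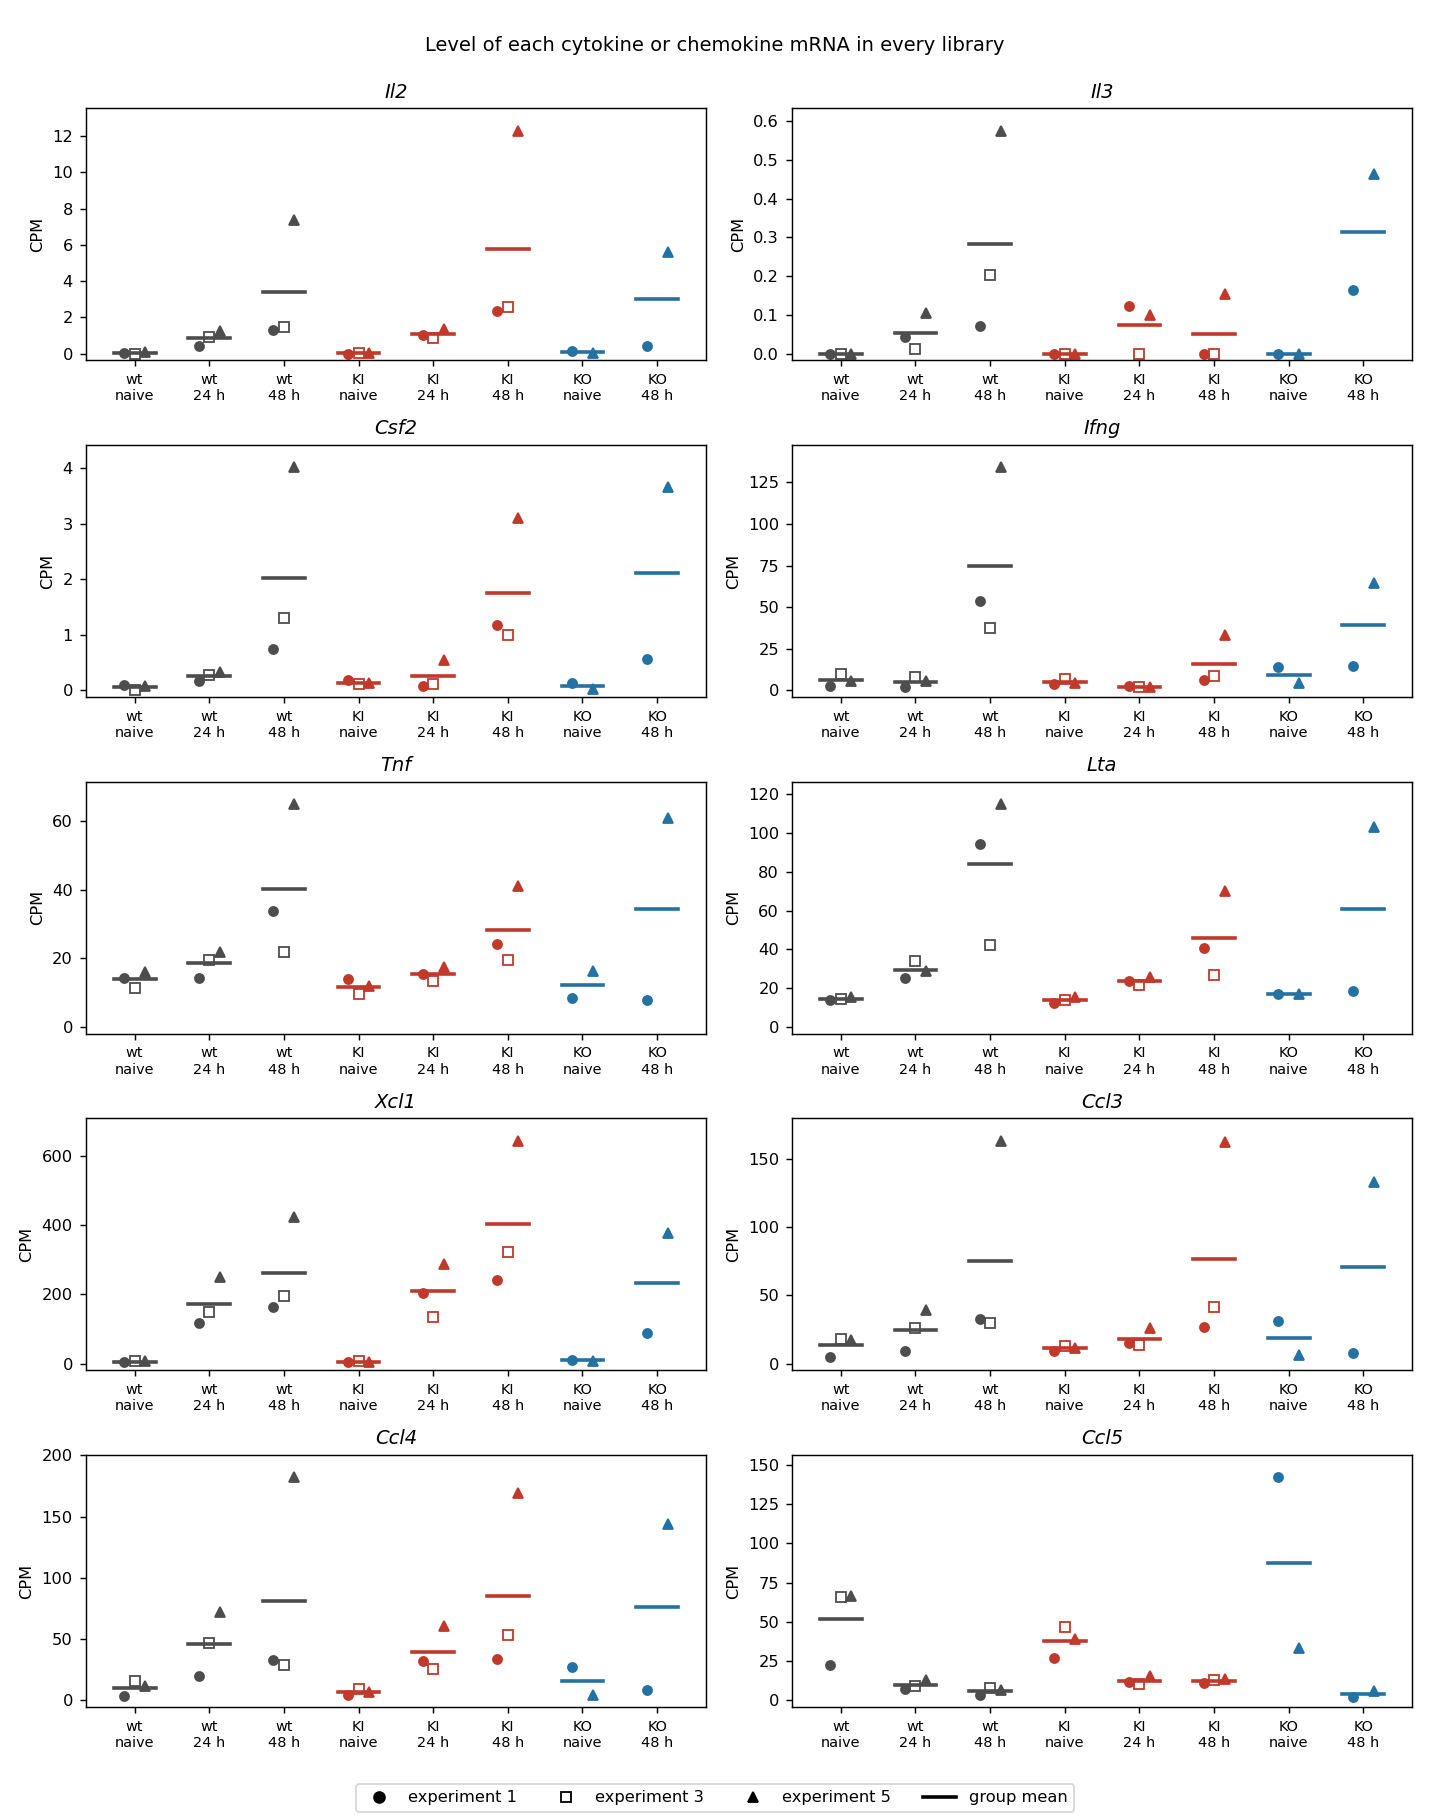
CPM of the 10 mRNAs in each of the 22 libraries, with a linear axis from 0 for each gene; points are libraries, marked by experiment, and bars are group means. At 48 h the library of experiment 5 is the highest of its genotype for every gene except Ccl5 in wt.

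Stimulation raised most of these mRNAs in wt cells and lowered Ccl5, and more of them had changed by 48 h than by 24 h. Calls are at 5% false discovery rate, that is an adjusted p under 0.05. By 24 h in wt, Il2 and Xcl1 were called higher, 2 of 10 where 26.3% of all genes were, and Ccl5 was called lower, 1 of 10 where 22% of all genes were. These shares lay close to those of all genes. By 48 h in wt, 9 of 10 were called higher, against 29.5% of all genes, and Ccl5 was lower, against 26.8%. Il3, with 0 counts in naive wt, could be called in no direction but higher. Il2 and Csf2, with 8 and 13 counts in all there, could hardly be called lower. Their naive counts were also low in the other genotypes, so the shares of members called higher against naive cells include genes with little room to fall. From 24 h to 48 h in wt, Ifng, Lta and Csf2 were called higher, 3 of 10 against 4.08% of all genes. The median log2 fold change of the members in wt was 1.52 at 24 h and 3.31 at 48 h, against -0.05 and -0.04 over all genes, and 1.46 at 24 h and again 3.31 at 48 h with Il3 at its lower bound. With the experiment as a replicate block 6 of 10 were called at 24 h, adding Lta, Csf2 and Ccl4 (adjusted p 0.0378, 0.04 and 0.0489). With the mouse as the block, which pairs the times of a genotype directly, 4 were called, adding Lta alone (Lta 0.0374, Csf2 0.0635 and Ccl4 0.0808). Over all genes 10233 were called without a block, 10523 with the experiment and 10804 with the mouse as the block. Without wt replicate 5 the count at 48 h was 6 of 10, Tnf, Il3, Ccl3 and Ccl4 being lost. From 24 h to 48 h no member was called without wt replicate 1 or without wt replicate 5, and Ifng alone was called in a fit of the compared groups only. Of all genes 1587 were called in the main fit, 134 and 527 without these mice, and 350 with the compared groups only. In bulk samples, fewer cells that make a cytokine and less of its RNA per cell cannot be told apart.

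In KI cells, 2 of 10 were called higher at 24 h (Il2 and Xcl1), against 22.9% of all genes, and Ccl5 was lower, against 15.8%. At 48 h, 7 of 10 were called higher, against 26.6% of all genes, and Ccl5 was lower, against 22.1%. Ifng and Il3 were the members that were not called in KI at 48 h. No member was called between 24 h and 48 h in KI (2.68% of all genes were), with 5 at an unadjusted p under 0.05. A replicate block by experiment gave 5 of 10 at 24 h, adding Il3 and Ccl4 (adjusted p 0.0434 and 0.0324), but with the mouse as the block it was 3 of 10, as without a block (Il3 0.0556 and Ccl4 0.0663). Calls over all genes were 8203 without a block, 8532 with the experiment and 8795 with the mouse. Csf2 was called from 24 h to 48 h with either block (0.0227 by experiment and 0.0322 by mouse), and DESeq2 called Csf2 and Ifng. These fits called 758, 810 and 1220 of all genes, against 567 in the main fit. Without KI replicate 5 the count at 48 h was 3 of 10, and without KI replicate 3 it was 5. The calls over all genes went from 10303 to 7446 and 7378. In libraries labelled KO, 5 of 10 were called higher at 48 h (Il2, Lta, Il3, Csf2 and Xcl1), against 23.6% of all genes, and Ccl5 was lower, against 20.4%. Without KO replicate 1 the count was 9 of 10 and without KO replicate 5 it was 2 of 10, each from a fit in which the single remaining mouse is assumed to vary like the other groups. In a fit of the compared groups only, 1 member, Xcl1, was called, and Il2, Lta, Il3, Csf2 and Ccl5 were lost (adjusted p 0.063 to 0.215). That fit called 1190 of all genes, where the main fit called 9314. The median log2 fold change at 48 h was 3.21 in KI (2.31 with Il3 at its bound) and 2.15 in libraries labelled KO. These comparisons share no controls with those in wt, but the 24 h and 48 h comparisons of a genotype share its naive libraries.

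**Figure D2:**
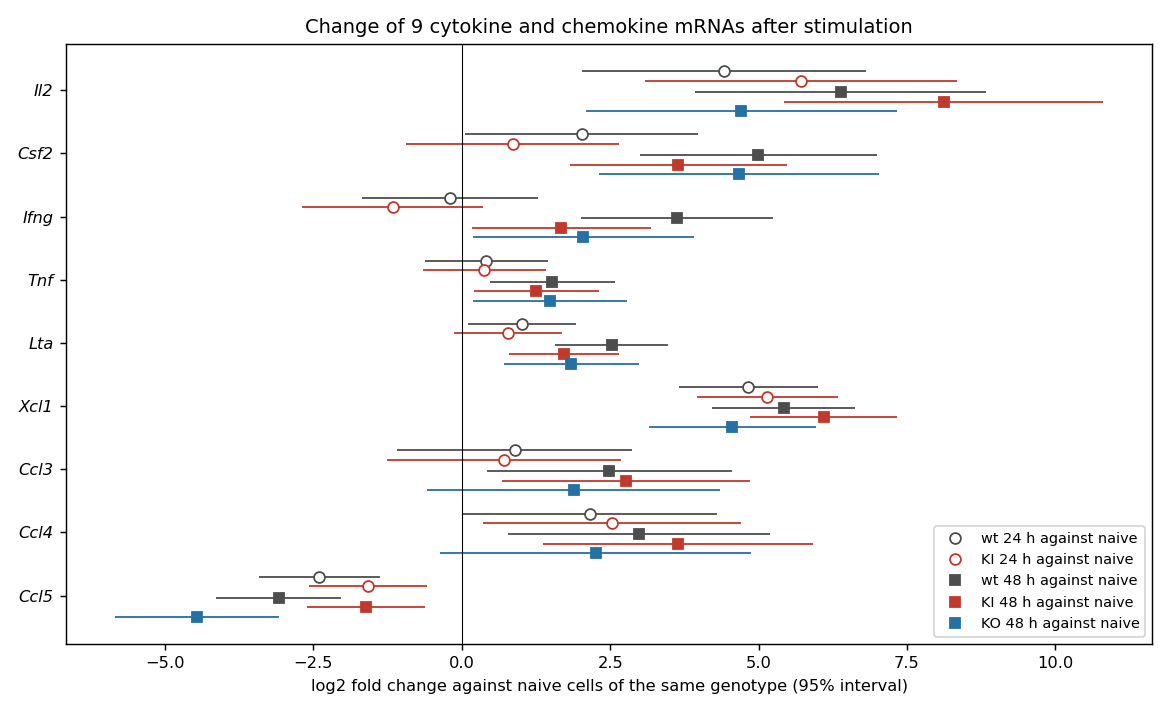
Log2 fold change against naive cells of the same genotype with its 95% interval, open circles at 24 h and filled squares at 48 h; Il3 is left out because it had no count in naive cells. Xcl1 and Il2 lie to the right of 0 in all 5 comparisons, Ccl5 lies to the left, and Ifng in wt moves from -0.20 at 24 h to 3.63 at 48 h.

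Il2 (ENSMUSG00000027720, chromosome 3, 37120523 to 37125959, minus strand), the gene of the main T cell growth factor, was near the detection limit before stimulation. Naive wt libraries had 0.0258, 0 and 0.095 CPM in replicates 1, 3 and 5, naive KI libraries 0, 0.0289 and 0.0275, and those labelled KO 0.168 and 0.0559 (replicates 1 and 5), from 0 to 14 counts in each. After 24 h the wt libraries had 0.438, 0.917 and 1.24 CPM and KI libraries 1.02, 0.854 and 1.37. At 48 h wt libraries had 1.31, 1.47 and 7.36, KI libraries 2.35, 2.60 and 12.3, and those labelled KO 0.447 and 5.58. Every stimulated library thus exceeded every naive library. In wt the log2 fold change reached 4.42 by 24 h (SE 1.14, adjusted p 0.00375). By 48 h it was 6.38 (SE 1.17, adjusted p 0.000146). In KI the values were 5.71 (SE 1.26, adjusted p 0.00142) and 8.12 (SE 1.28, adjusted p 4.28e-05). In libraries labelled KO it was 4.71 (SE 1.25, adjusted p 0.00507), 6.61 (adjusted p 0.00708) without KO replicate 1 and 1.40 (adjusted p 0.488) without KO replicate 5. Leaving out wt replicate 3 or 5 gave 3.82 and 5.48 for wt at 24 h, and leaving out KI replicate 3 or 5 gave 8.85 and 7.27 for KI at 48 h, all called. The size of these folds rests on 8 counts in all in naive wt and 4 in naive KI libraries.

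Il3 (ENSMUSG00000018914, chromosome 11, 54265303 to 54267277, minus strand), which codes for a growth factor of blood progenitors, basophils and mast cells, had 0 counts in all 8 naive libraries. By 24 h the wt libraries had 0.0424, 0.0118 and 0.104 CPM and KI libraries 0.123, 0 and 0.101. At 48 h wt libraries had 0.0715, 0.202 and 0.576 CPM, KI libraries 0, 0 and 0.154, and those labelled KO 0.164 and 0.465. It was thus seen in every wt library at 48 h and in 1 of 3 KI libraries. Against a floor of 3 counts over the naive group, pooled Il3 was at least 3.72-fold higher at 24 h and at least 19-fold higher at 48 h in wt, the latter called (adjusted p 0.0105) but lost without wt replicate 5 (adjusted p 0.0735). In KI it was at least 4.93-fold higher at 24 h and at least 3.61-fold higher at 48 h, neither called. In libraries labelled KO it was at least 17.3-fold higher at 48 h (adjusted p 0.03), lost without replicate 1 (0.0996) or replicate 5 (0.187). These values rest on 11 to 65 counts per stimulated group, and intervals and floors cover counting error only.

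Csf2 (ENSMUSG00000018916, chromosome 11, 54247271 to 54249667, minus strand), the GM-CSF gene, lies 15635 bp from Il3 on the same strand. Its naive levels were 0.0902, 0.0148 and 0.0792 CPM in wt, 0.178, 0.116 and 0.124 in KI, and 0.132 and 0.0279 in libraries labelled KO. These rest on 13 counts in all in naive wt, 29 in naive KI and 13 in naive libraries labelled KO, from 1 to 12 in each library. After 24 h wt had 0.170, 0.270 and 0.324 CPM and KI 0.0819, 0.119 and 0.551. After 48 h wt had 0.751, 1.31 and 4.02, KI 1.18, 0.989 and 3.11, and libraries labelled KO 0.566 and 3.66 CPM. All 48 h libraries lay above all naive and 24 h libraries. Csf2 changed at 48 h by a log2 fold change of 4.99 in wt (SE 0.954, adjusted p 0.000222), 3.65 in KI (SE 0.871, adjusted p 0.00202) and 4.67 in libraries labelled KO (SE 1.12, adjusted p 0.00255). The last was 6.96 (adjusted p 0.00267) without KO replicate 1 and 2.08 (adjusted p 0.224) without KO replicate 5. Without wt replicate 1 or 5 the wt value was 5.80 and 4.21, and without KI replicate 5 the KI value was 2.89, all called. From 24 h to 48 h it was 2.98 in wt (SE 0.822, adjusted p 0.0333), a call lost without wt replicate 1, 3 or 5, with adjusted p from 0.078 to 0.276, and with the compared groups only (0.0637). That call was also lost without a filter on low counts (0.0567). In wt the step to 24 h was not called (log2 fold change 2.02, adjusted p 0.0841), but was with the experiment as the block (0.04) and not with the mouse (0.0635).

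Ifng (ENSMUSG00000055170, chromosome 10, 118441046 to 118445892, plus strand), the interferon-gamma gene, was late. Naive wt libraries had 2.71, 9.66 and 5.86 CPM and 24 h wt libraries 1.88, 8.18 and 5.81, so each mouse kept nearly its naive level. At 48 h the wt libraries had 53.7, 37.2 and 134 CPM. In wt the log2 fold change of Ifng was -0.20 at 24 h (95% interval -1.68 to 1.29), 3.63 at 48 h against naive (SE 0.77, adjusted p 0.000639) and 3.82 at 48 h against 24 h (SE 0.777, adjusted p 0.00574). The call against 24 h was lost without wt replicate 1 (adjusted p 0.0753) or 5 (3.17, adjusted p 0.0905), and the change was 4.60 without wt replicate 3. The call against naive held, at 4.46 without wt replicate 3 and 2.88 without wt replicate 5.

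In KI cells Ifng was 3.57, 6.84 and 4.60 CPM naive, 2.80, 2.14 and 1.79 at 24 h, and 5.95, 8.85 and 33.2 at 48 h. The 24 h libraries lay below all naive KI libraries, with a log2 fold change of -1.16 that was not called (95% interval -2.69 to 0.36, adjusted p 0.22). A fit of the compared groups only called it lower (-1.23, adjusted p 0.00392), and in the other alternatives the adjusted p was 0.152 to 0.554. At 48 h replicate 1 lay within the naive range, replicate 3 just above it and replicate 5 far above it. The rise from naive to 48 h in KI was not called (log2 fold change 1.68, SE 0.72, adjusted p 0.0622), and that from 24 h to 48 h was not called either (2.84, SE 0.755, adjusted p 0.0519), though it was with an edgeR fit without robust estimation (adjusted p 0.0483), with DESeq2 (0.00621) and with DESeq2 size factors in edgeR (0.0494). In those labelled KO, naive Ifng stood at 14.3 and 4.71 CPM and Ifng at 48 h at 14.4 and 64.5 CPM, so replicate 1 showed no rise and replicate 5 did. The log2 fold change was 2.05 (SE 0.883, adjusted p 0.0679), 3.78 without replicate 1 and 0.008 without replicate 5. Another gene model, Gm49751, shares 25.9% of the exon bases of Ifng on the same strand, and how reads of shared bases were counted is not given in the sources used here.

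Tnf (ENSMUSG00000024401, chromosome 17, 35199381 to 35202007) and Lta (ENSMUSG00000024402, chromosome 17, 35203165 to 35205351), which code for TNF and lymphotoxin-alpha, lie 1157 bp apart on the minus strand. Tnf was already present in naive cells, at 14.4, 11.5 and 16.1 CPM in wt, 13.9, 9.50 and 12 in KI and 8.43 and 16.3 in libraries labelled KO. By 24 h wt had 14.4, 19.5 and 21.8 CPM and KI 15.4, 13.3 and 17.5, both overlapping the naive range. By 48 h wt had 33.9, 21.8 and 65.0, KI 24.1, 19.5 and 41.0, and libraries labelled KO 7.97 and 61.0 CPM. It was thus higher at 48 h than in any naive library for all wt and KI mice, but not for KO replicate 1. For Tnf at 48 h the log2 fold change was 1.53 in wt (SE 0.504, adjusted p 0.0152), 1.26 in KI (SE 0.501, adjusted p 0.0453) and 1.49 in libraries labelled KO (SE 0.616, adjusted p 0.0581). The call in KI was lost in 7 of the alternative fits, including upper-quartile scaling (adjusted p 0.0801). The call in wt was lost without wt replicate 1 (0.0579) or 5 (0.143). In libraries labelled KO the log2 fold change was 1.91 without replicate 1 and -0.08 without replicate 5. It was called with the experiment as the block (1.29, adjusted p 0.0401), but not with the mouse as the block (0.93, adjusted p 0.0797).

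Lta showed a tighter and larger change than Tnf. Its naive levels were 14, 14.5 and 15.3 CPM in wt, 12.4, 13.8 and 15.5 in KI and 17 in both libraries labelled KO. After 24 h wt had 25.5, 33.9 and 29.1 CPM and KI 24.0, 21.9 and 25.6. After 48 h wt had 94.6, 42.3 and 115 CPM, KI 40.7, 26.8 and 70.0, and libraries labelled KO 18.4 and 103. Every stimulated library exceeded every naive one, by the least in KO replicate 1. The log2 fold change at 24 h was 1.02 in wt (SE 0.435, adjusted p 0.0615) and 0.78 in KI (SE 0.434, adjusted p 0.168), and the wt value was called with the experiment or the mouse as the block (adjusted p 0.0378 and 0.0374). At 48 h it was 2.53 in wt (SE 0.454, adjusted p 0.000123), 1.72 in KI (SE 0.442, adjusted p 0.00358) and 1.84 in libraries labelled KO (SE 0.543, adjusted p 0.0104). The last of these was 2.61 (adjusted p 0.00186) without KO replicate 1 and 0.11 (adjusted p 0.901) without KO replicate 5, and the call in KI was lost without KI replicate 5 (adjusted p 0.0608). From 24 h to 48 h Lta rose in wt (1.51, SE 0.438, adjusted p 0.0416), a call lost without wt replicate 1 (0.351) or 5 (0.306) and with the compared groups only (0.0626). That call was also lost without a filter on low counts (0.125) and with limma (0.0527).

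Xcl1 (ENSMUSG00000026573, chromosome 1, 164931644 to 164935527, minus strand), the lymphotactin gene, had the most secure rise. Its naive levels were 4.02, 6.85 and 7.40 CPM in wt, 5.23, 7 and 5.44 in KI and 11.3 and 8.43 in libraries labelled KO. By 24 h wt had 117, 150 and 251 CPM and KI 203, 134 and 289. By 48 h wt had 164, 195 and 425, KI 241, 324 and 644, and libraries labelled KO 88.6 and 377 CPM. The lowest stimulated library, at 88.6 CPM, lay far above the highest naive one, at 11.3. Xcl1 was 28.4-fold higher at 24 h in wt (log2 4.83, SE 0.559, adjusted p 1.33e-06) and 35.4-fold higher in KI (log2 5.15, SE 0.567, adjusted p 1.20e-06). At 48 h the folds were 42.9 in wt (adjusted p 2.78e-07), 68.4 in KI (adjusted p 1.47e-07) and 23.5 in libraries labelled KO (adjusted p 2.78e-05). None of the alternatives run, left-out mice included, ended these 5 calls. The size of the last rested on which mouse was kept, with a log2 fold change of 4.56 from both, 5.49 without KO replicate 1 (adjusted p 0.000264) and 2.96 without KO replicate 5 (adjusted p 0.0105). The further step from 24 h to 48 h was not called in wt (log2 0.60, 95% interval -0.40 to 1.59) or KI (0.95, -0.05 to 1.95).

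Reads of Xcl1 and Gm20743, an antisense gene that shares 18.7% of the exon bases of Xcl1, may not be told apart, since no source used here says whether counting used the strand. Gm20743 had 37.7% to 44.0% of the count of Xcl1 in each of the 14 stimulated libraries, and the pair had r = 0.996. Csf2 likewise shares 12% of its exon bases with the antisense gene Gm12223, whose count was 16.7% to 81.8% of that of Csf2, with r = 0.979.

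Ccl3 (ENSMUSG00000000982, chromosome 11, 83647844 to 83649355, minus strand) and Ccl4 (ENSMUSG00000018930, chromosome 11, 83662584 to 83664683, plus strand) code for the inflammatory chemokines MIP-1alpha and MIP-1beta and lie 13228 bp apart. Ccl3 was at 5.09, 17.9 and 17.2 CPM in naive wt, 9.16, 13.3 and 11.4 in naive KI, and 31.4 and 6.74 in naive libraries labelled KO. After 24 h wt had 9.50, 25.8 and 39.2 CPM and KI 15.5, 13.6 and 26.2. After 48 h wt had 32.5, 29.6 and 163, KI 26.6, 41.7 and 162, and libraries labelled KO 7.96 and 133 CPM. Experiment 5 was about as high in all genotypes at 48 h, and KO replicate 1 was below its own naive level. For Ccl3 at 48 h the log2 fold change was 2.48 in wt (SE 0.976, adjusted p 0.0392) and 2.77 in KI (SE 0.987, adjusted p 0.0286). Leaving out replicate 1, 3 or 5 of the genotype ended both calls (adjusted p 0.0658 to 0.272 in wt and 0.0658 to 0.264 in KI), and upper-quartile scaling ended that in wt (0.0509). Both were also lost without a filter on low counts (0.0813 in wt and 0.0605 in KI), and that in wt with limma (0.0531). The values were 1.43 in wt and 1.63 in KI without replicate 5, and 3.13 in wt without replicate 3. In libraries labelled KO it was 1.88 (adjusted p 0.202) with both mice, 4.31 without replicate 1 and -1.985 without replicate 5.

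Ccl4 was at 3.29, 15.8 and 11.9 CPM in naive wt, 4.70, 9.28 and 6.51 in naive KI, and 27.5 and 4.35 in naive libraries labelled KO. At 24 h wt had 19.9, 46.9 and 72.0 CPM and KI 32.4, 25.5 and 60.7, all above the naive libraries of their genotype. At 48 h wt had 33.4, 29.1 and 182, KI 33.6, 53.5 and 169, and libraries labelled KO 8.20 and 144 CPM. In wt replicate 3 Ccl4 was lower at 48 h than at 24 h, unlike the other wt and KI mice. The log2 fold change was 2.17 at 24 h in wt (SE 1.01, adjusted p 0.0874) and 2.53 in KI (SE 1.03, adjusted p 0.0615). At 48 h it was 2.99 in wt (SE 1.04, adjusted p 0.0224) and 3.64 in KI (SE 1.07, adjusted p 0.0103). Both 48 h calls were lost without replicate 5 of the genotype (1.72, adjusted p 0.209, and 2.66, adjusted p 0.0988), and that in wt also without replicate 1 (0.0591). Without wt replicate 3 it was 3.83 and called. With the KO label it was 2.25 (adjusted p 0.15), 5.05 without replicate 1 and -1.75 without replicate 5.

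Ccl5 (ENSMUSG00000035042, chromosome 11, 83525778 to 83530518, minus strand), the RANTES gene, which memory CD8+ T cells hold as a stored message, fell in all genotypes. Naive wt libraries had 22.7, 66 and 66.8 CPM, naive KI libraries 27.1, 46.5 and 39.4, and those labelled KO 142 and 33.2. By 24 h wt had 7.38, 9.30 and 12.8 CPM and KI 11.9, 10.4 and 15.5. By 48 h wt had 3.66, 8.15 and 6.54, KI 10.9, 12.7 and 13.5, and libraries labelled KO 2.16 and 5.75 CPM. No stimulated library reached its naive counterpart. Ccl5 was 5.27-fold lower at 24 h and 8.48-fold lower at 48 h in wt (adjusted p 0.00052 and 4.4e-05). It was 2.99-fold and 3.05-fold lower in KI at these times (adjusted p 0.0129 and 0.00913). With the KO label it was 22-fold lower at 48 h (log2 -4.46, adjusted p 2.63e-05), a value that includes the high naive library of replicate 1. Without that mouse the log2 fold change was -2.52 (adjusted p 0.0063), and without replicate 5 it was -6.04 (adjusted p 2.93e-05). Leaving out KI replicate 1, 3 or 5 ended the KI call at 24 h (adjusted p 0.056 to 0.155), and leaving out KI replicate 3 or 5 ended it at 48 h (0.0845 and 0.0596). Summed markers of gamma-delta and invariant T cells were lower in the same stimulated libraries, and memory markers were lower at 24 h. The 8 markers of gamma-delta and invariant T cells summed to 55.8 to 92.3 CPM in naive wt, 18.3 to 29.8 at 24 h and 7.91 to 20 at 48 h. In KI they were at 52.8 to 81.5, 25 to 42.9 and 25.6 to 46.2 CPM, and in libraries labelled KO at 61.3 to 146 naive and 11.2 to 31.4 at 48 h. The 10 memory markers summed to 1230 to 1370 CPM in naive wt and 793 to 1020 at 24 h, and to 1530 to 1670 and 823 to 1100 in KI, with 897 to 1420 in wt and 1050 to 1480 in KI at 48 h. The 8 CD4+ T cell markers were higher instead, at 99.5 to 157 CPM in naive wt and 268 to 414 at 48 h. In KI they were at 94.2 to 114 and 261 to 282 CPM, and in libraries labelled KO at 83.8 to 397 and 247 to 857. The part of gamma-delta, memory and CD4+ T cells in the fall of Ccl5 was not tested.

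The high naive levels of KO replicate 1 went with other markers. Its Ccl5 (142 CPM), Ccl4 (27.5), Ccl3 (31.4) and Ifng (14.3) were the highest of the 8 naive libraries. Its NK cell markers, of which all 8 were detected, summed to 369 CPM against 71.9 to 182 in the other naive libraries, its dendritic cell markers to 253 against 37.1 to 104, and its gamma-delta and invariant T cell markers to 146 against 52.8 to 92.3. The 10 memory markers summed to 1400 CPM, within the 1230 to 1670 of the others. Among them Cd44 (62.8 CPM against 12.9 to 31.2), Il2rb (303 against 182 to 267), Cxcr3 (15.8 against 6.6 to 11.1) and Klrc2 (15.1 against 2.74 to 7.39) were the highest of the naive libraries, while Klrd1 (110) and Itga4 (498) were the lowest and Nkg7 (199) tied for the lowest. The part of such cells in these values was not tested. At 48 h the same mouse had 857 CPM of CD4+ T cell markers against 247 to 414 in the other 48 h libraries, and its Il2, Tnf, Lta, Csf2, Xcl1, Ccl3, Ccl4 and Ccl5 were the lowest of the 8 libraries of that time.

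Between KI and wt no member was called at any time. In naive cells 0 of 10 members were called, where 0.113% of all genes were, and at 24 h 0 of 10, where 0.00472% were. Il3, with 0 counts in all naive libraries, could not be called in naive cells. Il2 and Csf2 rested there on 4 and 29 counts in all in KI and 8 and 13 in wt. At an unadjusted p under 0.05 there were 0 members at both times, and DESeq2 called none. At 48 h 0 of 10 members were called, where 4.17% of all genes were, with 2 at an unadjusted p under 0.05. DESeq2 and limma on the variance-stabilised values each called 1, Ifng. The intervals remained wide: for Ccl3 at 48 h the log2 difference of KI from wt was 0.04 with a 95% interval from -1.91 to 1.98, for Tnf -0.51 (-1.55 to 0.52) and for Xcl1 0.63 (-0.37 to 1.62). Fold changes of 2 in either direction thus lay within these intervals for Ccl3, and in 1 direction for Tnf and Xcl1.

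**Figure D3:**
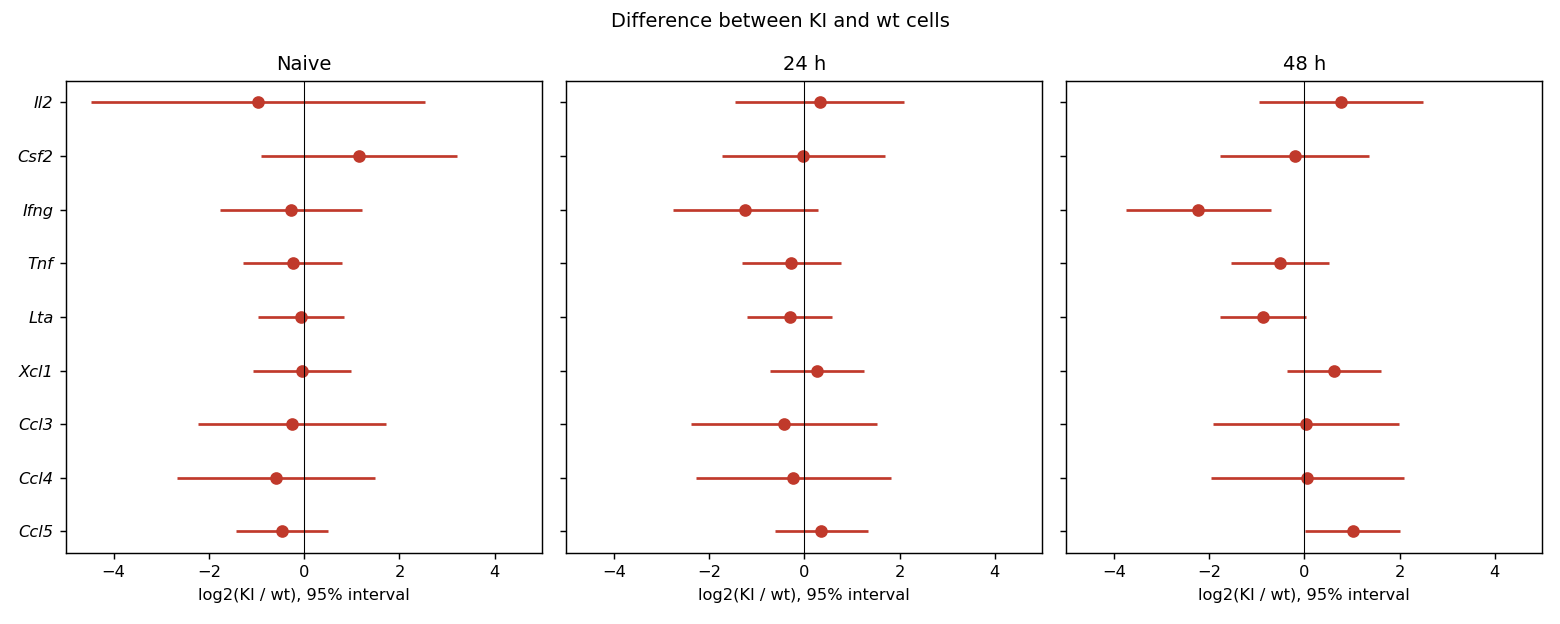
Log2 difference between KI and wt (positive where KI is higher) with its 95% interval in naive cells, at 24 h and at 48 h, for 9 genes without Il3. At 48 h the interval of Ifng runs from -3.75 to -0.71 and that of Ccl5 from 0.02 to 2.00, and the other intervals include 0.

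Ifng at 48 h was lower in KI than in wt without overlap, 5.95 to 33.2 CPM against 37.2 to 134 CPM. The log2 difference was -2.23 (SE 0.724), with an unadjusted p of 0.00644 and an adjusted p of 0.0941, so it was not called. Within experiments 1, 3 and 5 it was -3.17, -2.07 and -2.01 on the log2 CPM scale, lower in 3 of 3. The adjusted p was 0.0569 with the experiment as a replicate block, 0.0411 with DESeq2, 0.0406 with limma and 0.0564 to 0.43 on leaving out a mouse, with differences from -3.34 to -1.51. At 24 h KI was lower in experiments 3 and 5 (-1.92 and -1.69) and higher in experiment 1 (0.57), and naive cells showed no common direction. The difference of the response from naive to 48 h between KI and wt was -1.95 for Ifng (SE 1.00, adjusted p 0.556).

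Ccl5 differed the other way at 48 h, with 10.9 to 13.5 CPM in KI against 3.66 to 8.15 CPM in wt and no overlap. KI was 2.02-fold higher (log2 1.01, SE 0.473, unadjusted p 0.0456, adjusted p 0.266), and higher in 3 of 3 experiments (1.56, 0.63 and 1.04). The difference of the response from naive to 48 h was 1.47 (SE 0.661, unadjusted p 0.0382, adjusted p 0.474). No alternative called either value. Of the other members at 48 h, Il2 and Xcl1 were higher in KI in 3 of 3 experiments, by 0.74 to 0.83 and by 0.56 to 0.74 on the log2 scale. Lta, Tnf and Il3 were lower in 3 of 3, by 0.66 to 1.22 for Lta. None of these was called. Csf2, Ccl3 and Ccl4 had no common sign.

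**Figure D4:**
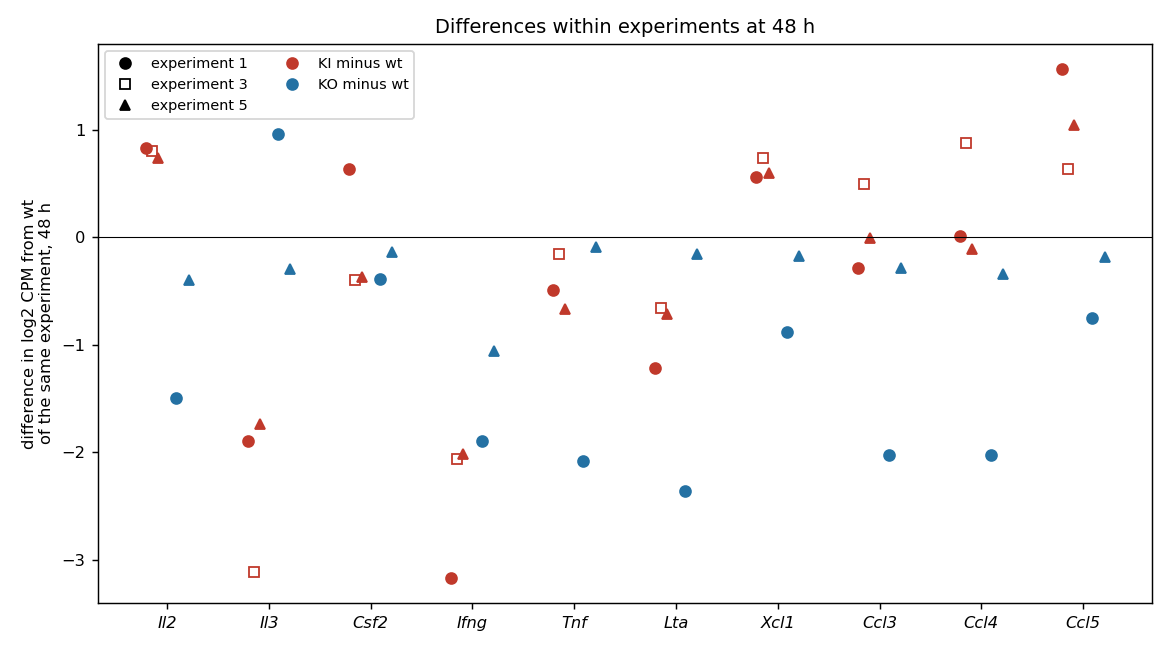
Difference in log2 CPM at 48 h between KI (red) or libraries labelled KO (blue) and the wt library of the same experiment, 1 point per experiment. All 3 KI points lie between -3.17 and -2.01 for Ifng and between 0.63 and 1.56 for Ccl5, and experiment 1 of the KO label lies below experiment 5 for all genes but Il3.

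Markers of other cells were compared between the 48 h libraries. The 8 markers of gamma-delta and invariant T cells summed to 25.6 to 46.2 CPM in KI and 7.91 to 20 in wt, without overlap, Trdc being 13.1 to 18.4 against 3.72 to 9.83 CPM. Of these 8, 3 stayed under 1 CPM in each group. The 8 NK cell markers summed to 64.6 to 184 CPM in KI and 109 to 129 in wt, nearly all from Eomes, which T cells also express. The defining NK gene Ncr1 was under 1 CPM in all of them, and Khdc1a was at 0 in wt. The 8 CD4+ T cell markers summed to 261 to 282 CPM in KI and 268 to 414 in wt, and the 10 memory markers to 1050 to 1480 and 897 to 1420. The 10 B cell markers summed to 145 to 306 CPM in KI and 62.3 to 182 in wt. The 10 dendritic cell markers summed to 223 to 397 CPM in KI and 430 to 501 in wt, without overlap. Of these 10, 6 stayed under 1 CPM in KI and 5 in wt. The part of such cells in the differences of Ifng and Ccl5 was not tested.

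Against wt, libraries labelled KO had 0 of 10 members called in naive cells (0.0236% of all genes were) and 0 of 10 at 48 h (0.0283% were), with 0 at an unadjusted p under 0.05 in both and none by DESeq2. In naive cells Il3, with 0 counts, could not be called, and Il2 and Csf2 rested on few counts. Ifng at 48 h was -0.92 (95% interval -2.59 to 0.74), and lower in both experiments (-1.89 and -1.06). Of the 10 members, 9 were lower than wt in both experiments at 48 h, and all differences of experiment 5 but that of Ifng were within 0.40 on the log2 scale. Most members vary together over the stimulated libraries, so the 9 are not separate results, and no such share over all genes is given here. Without KO replicate 5, so with replicate 1 alone, Tnf (-2.34, adjusted p 0.00602) and Lta (-2.19, adjusted p 0.00619) were called lower. Without replicate 1 none was called, and Ifng was at -0.22 and Tnf at 0.60. The tests of a different response gave 0 of 10 members from naive to 24 h and from 24 h to 48 h in KI, from naive to 48 h in KI and from naive to 48 h in libraries labelled KO. Over all genes they called 0%, 0.00472%, 0.387% and 0%. In these tests 1 member, Ccl5 in KI to 48 h, had an unadjusted p under 0.05, and DESeq2 called none. Without KO replicate 5 Ccl5 and Lta were called in the KO response (adjusted p 0.0336 and 0.0361), and without KO replicate 1 none was.

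Experiment 5 gave the highest levels at 48 h. Ccl3 in experiment 5 was 5.24 times the mean of the other wt libraries and 4.75 times that of the other KI libraries, and Il2 5.29 and 4.96 times. Ccl4 (5.83 and 3.88), Ifng (2.95 and 4.48), Csf2 (3.90 and 2.87), Xcl1 (2.37 and 2.28), Tnf (2.33 and 1.88) and Lta (1.68 and 2.07) were higher there as well. Ccl5 was not, at 1.11 and 1.15 times. Wt and KI mice of experiment 5 were the female ones. In libraries labelled KO, where both mice were female, experiment 5 was higher than experiment 1 at 48 h for all 10 members. The ratio was 16.7 for Ccl3, 17.5 for Ccl4, 12.5 for Il2, 7.66 for Tnf, 4.46 for Ifng and 2.66 for Ccl5. With 1 mouse per experiment there, experiment and mouse cannot be told apart. Replicate 1 is also the mouse with the raised markers of other cells. Naive cells showed less of this excess of experiment 5. In naive wt experiment 5 was the highest library for Il2 (7.37 times the mean of the others, on 0 to 6 counts per library), Ccl5 (1.5), Xcl1 (1.36), Tnf (1.24) and Lta (1.07), and not for Ifng, Csf2, Ccl3 or Ccl4. In naive KI it was the highest for Lta (1.18) and for no other member, and in naive libraries labelled KO for Tnf (1.93) alone.

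The members varied together over the 14 stimulated libraries. These points share mice, times and experiments, so correlations of log2 CPM are given as a description. The highest among members were Il2 with Ccl3 (r = 0.956), Tnf with Lta (0.95), Ccl3 with Ccl4 (0.945) and Il2 with Xcl1 (0.943). Ifng went most closely with Lta (0.85) and Csf2 (0.823), and least with Xcl1 (0.431) apart from Ccl5. Ccl5 had r of -0.464 with Ifng and 0.498 with Xcl1.

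**Figure D5:**
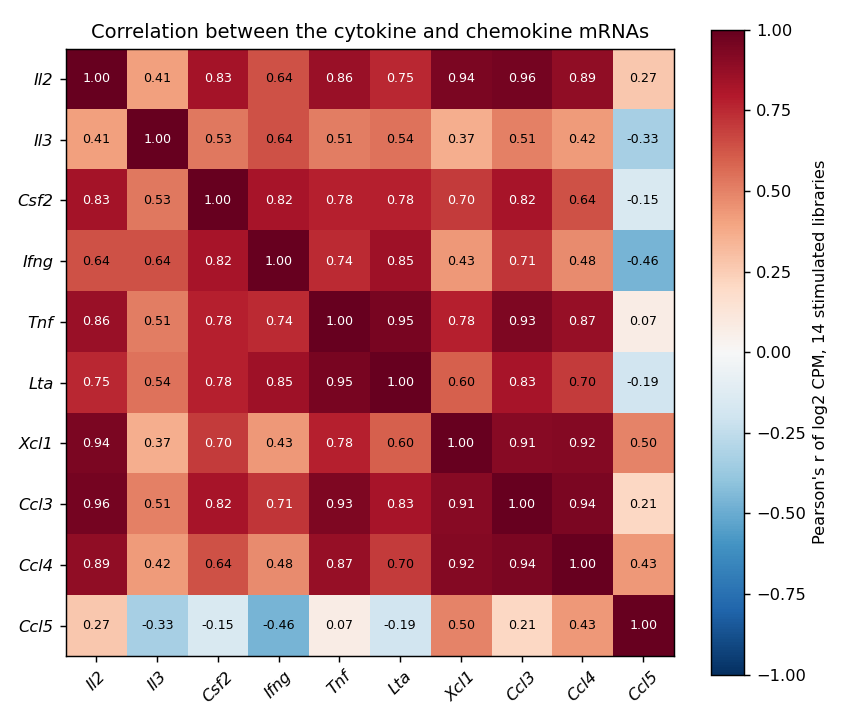
Pearson's r of log2 CPM between the members over the 14 stimulated libraries, which share mice and experiments. Il2, Tnf, Xcl1, Ccl3 and Ccl4 form a block with r of 0.775 and above, and the row of Ccl5 stays at 0.498 and below.

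Over all tested genes, the 3 of most similar pattern to Ifng were Atad1 (r = 0.963), Pigf (0.96) and Ube2s (0.954). Those of Tnf were 2310057M21Rik (0.988), Slc39a6 (0.959) and Anapc11 (0.957), and those of Lta were Galnt3 (0.958), Hccs (0.956) and Gm4353 (0.953). Csf2 was closest to the antisense Gm12223, then Ifitm2 (0.975) and Jmjd6 (0.952), and Xcl1 to the antisense Gm20743, then Il2 and Ccl4 (0.921). Il2 was closest to Ccl3, Gm20743 (0.949) and Xcl1, Ccl3 to Il2, Ccl4 and Anapc11 (0.939), and Ccl4 to Ccl3, Bcl2a1b (0.931) and Map2k3 (0.921). Ccl5 was closest to the microRNA gene Mir155 (0.942), Prpf18 (0.941) and the chemokine receptor gene Ccr9 (0.932). The values for Il3 were lower, with Gm5447 (0.877), Gm14586 (0.87) and Gm20712 (0.866), at 0 to 43 counts per library.

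Of 17 receptor genes for the products of the members, 3 were called higher and 8 lower in wt at 48 h, against 29.5% and 26.8% of all genes. Il2ra, the high-affinity IL-2 receptor chain, rose (log2 fold change 6.44, SE 0.414, adjusted p 5.55e-10), as did Il2rb (1.11, SE 0.216, adjusted p 0.000257), while Ccr3, a receptor of CCL5 (-5.61, SE 1.07), and Ltbr, the lymphotoxin-beta receptor (-3.44, SE 0.621), fell. The median of the list was -0.72, against -0.04 over all genes. Markers of monocytes and macrophages, neutrophils and B cells were also lower at 48 h than in naive wt. The 10 monocyte and macrophage markers summed to 104 to 236 CPM naive and 19.9 to 31.3 at 48 h, the 10 neutrophil markers to 16.9 to 51.9 and 0.139 to 0.831, and the 10 B cell markers to 403 to 662 and 62.3 to 182. The sum of the 10 dendritic cell markers went the other way, from 57.6 to 104 CPM in naive wt to 430 to 501 at 48 h. Of these 10, 2 stayed under 1 CPM in naive wt and 5 at 48 h, with Cd209a at 0. The higher sum thus came from the other markers of that list. The 8 NK cell markers (71.9 to 182 and 109 to 129) and the 8 mast cell and basophil markers (11.5 to 30.3 and 3.79 to 15.5) overlapped. The part of other cells in the falls of Ccr3, Ltbr and the other genes lower at 48 h was not tested. In KI at 48 h 3 receptors were higher and 3 lower, against 26.6% and 22.1% of all genes. Against wt at 48 h, 2 of 17 were called higher in KI, where 2.28% of all genes were. They were Il2rg, the common gamma chain (log2 0.78, SE 0.105, adjusted p 0.000532; 805, 725 and 877 CPM in KI and 478, 450 and 472 in wt), and Tnfrsf14, a receptor of lymphotoxin-alpha (0.75, SE 0.206, adjusted p 0.0466).

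Of 24 tested other T cell cytokines and TNF family ligands, 8 were higher and 4 lower in wt at 48 h (median log2 fold change 0.16), again against 29.5% and 26.8%. Tnfsf4, which codes for OX40 ligand (6.53, SE 0.543), was among those that rose, as was Cd70 (at least 8.17-fold higher, from 0 counts in naive wt and 28 at 48 h against a floor of 3 over the group, adjusted p 0.00291). Il6 (-2.91, SE 1.03) and Ltb, the gene of lymphotoxin-beta next to Tnf (-1.19, SE 0.271), fell most. In KI against wt at 48 h Tnfsf8 (0.92, SE 0.195, adjusted p 0.0114) and Tnfsf10, the TRAIL gene (0.54, SE 0.125, adjusted p 0.0187), were higher and Osm, the oncostatin M gene (-0.84, SE 0.228, adjusted p 0.0438), was lower. These were 2 higher and 1 lower of 24, against 2.28% and 1.89% of all genes. Of 14 tested other chemokines 2 were higher and 5 lower in wt at 48 h, against 29.5% and 26.8% of all genes. The 2 were Ccl25 (1.43, SE 0.279) and Ccl1, with 1 count in naive wt and 44 at 48 h (ratio 38.5, exact 95% counting interval 6.56 to 1550, adjusted p 0.0143). The 5 that fell included Cxcl12 (at least 21-fold lower, adjusted p 0.00142) and Ccl24 (at least 10.3-fold lower, adjusted p 0.00469), with 55 and 27 counts in naive wt and 0 at 48 h, and Cxcl13, with 45 counts in naive wt and 1 at 48 h (ratio 0.0194, exact 95% counting interval 0.000482 to 0.114, adjusted p 0.00256), which was named after its values were seen. None differed between KI and wt, with a median of 0.28 at 48 h.

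Of 29 transcription factors known to act on cytokine genes, 12 were higher and 8 lower in wt at 48 h, with a median of 0.10, where 29.5% of all genes were higher and 26.8% lower. The share that fell lay close to that of all genes. Irf8 (3.55, SE 0.518) and Irf4 (3.03, SE 0.432) rose most, and the AP-1 genes Fos (-6.15, SE 0.303) and Jun (-3.47, SE 0.387) fell most, below their level in isolated naive cells. In KI the same 4 genes were called at 48 h, with 3.48, 3.35, -5.69 and -3.60. For KI against wt 1 of 29 was called, where 4.17% of all genes were. This was Runx1, which was higher in KI (1.01, SE 0.199, adjusted p 0.00721; 23.6, 24.9 and 25.2 CPM against 9.04, 13.2 and 14.5). Of 15 factors of cytokine mRNA decay and stability, 4 were higher and 8 lower in wt at 48 h (median -0.58), the former close to the 29.5% of all genes and the latter beside 26.8%. Zfp36, the tristetraprolin gene (-3.21, SE 0.305), and Tnfaip3, which codes for A20 (-3.63, SE 0.458), fell most, and Zc3h12d (1.42, SE 0.133) and Khsrp (0.97, SE 0.144) rose most. Against wt, 1 of 15 was called, beside the same 4.17%. It was Zfp36l1, a relative of Zfp36 that was higher in KI (0.66, SE 0.172, adjusted p 0.0354).

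Of 22 tested target genes of interferon-gamma, 9 were higher and 4 lower in wt at 48 h (median 0.17), where 29.5% and 26.8% of all genes were, led by Gbp5 (2.33, SE 0.24) and Gbp2 (1.98, SE 0.42) upwards and by Ciita (-2.78, SE 0.685) and H2-Aa (-2.40, SE 0.88), genes of class II antigen presentation that B cells also express, downwards. Between KI and wt at 48 h 5 of 22 were called higher in KI, against 2.28% of all genes, and 0 lower, against 1.89%, with a median of 0.67 against 0 over all genes. Gbp4, a guanylate-binding protein gene, had 591, 401 and 400 CPM in KI and 158, 121 and 246 in wt (log2 1.41, SE 0.262, adjusted p 0.00512). Its relatives Gbp3 (0.98, SE 0.186, adjusted p 0.00568) and Gbp6 (0.80, SE 0.174, adjusted p 0.0138) and the PD-L1 gene Cd274 (0.81, SE 0.216, adjusted p 0.0388) were also among them. The direction is opposite to that of the Ifng mRNA in the same libraries. These genes also respond to type I interferons. In naive cells 0 of the 22 were called between KI and wt, where 0.113% of all genes were, with a median of 0.22. Naive Gbp6 was at 139, 137 and 138 CPM in KI and 80.1, 93.4 and 69.5 in wt, while naive Gbp4 and Cd274 overlapped. For a different response from naive to 48 h, 0 of the 22 were called, where 0.387% of all genes were, with a median of 0.25.

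Of 20 IL-2 and STAT5 target genes, 13 were higher and 2 lower in wt at 48 h (median 1.15), against 29.5% and 26.8% of all genes, Gzmb, the granzyme B gene (7.17, SE 0.859), and Il2ra rising most and Socs3 (-2.20, SE 0.337) and the perforin gene Prf1 (-0.82, SE 0.341, adjusted p 0.0488) being the 2 that fell. KI differed from wt at 48 h in 2 of 20, both lower in KI, where 1.89% of all genes were, Pim2, a kinase gene (-0.67, SE 0.162, adjusted p 0.0239), and Osm, with a list median of -0.55. Of 10 tested genes beside the members on the chromosome, 4 were higher and 2 lower in wt at 48 h, against the same 29.5% and 26.8%. Acsl6, a fatty acid activation enzyme beside Il3, rose most (6.29, SE 0.749), followed by P4ha2 (2.99, SE 1.02), and Ccl6 (-3.81, SE 1.15) and Ltb fell. Acsl6 was the 1 of these 10 called between KI and wt at 48 h (4.17% of all genes were), and it was lower in KI (-3.18, SE 0.599, adjusted p 0.00561), at 0.292, 0.124 and 0.616 CPM against 4.12, 2.54 and 2.68.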

How the data were processed

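Bulk RNA was measured by stranded poly(A) mRNA sequencing, per the labels. The submitters' processing notes name bcl2fastq 2.20.0, TopHat2 2.1.0, Bowtie2 2.2.5, SAMtools 0.1.19, featureCounts, DESeq2 1.6.3 and GRCm38. Whether counting used strand is not given in the sources used here. The authors deposited counts per gene, log2 variance-stabilised values, used as an alternative, log2 normalized values, used for a check, and FPKM, used for levels between genes.

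Genes were kept by filterByExpr (minimum count 10, total 15), and 8 group means were fitted to 22 libraries with TMM scaling in edgeR 4.0.16 (R 4.3.3), with robust estimation. Genes were tested by quasi-likelihood, p-values were adjusted over 21183 genes (Benjamini-Hochberg), and SE are of the log2 fold change. Robust estimation was chosen after both fits had been run, because it gives the counts known for the whole series; the other fit is an alternative. Other alternatives were DESeq2 1.42.0, limma 3.58.1, other scalings, no filter, fewer groups, replicate blocks and left-out mice.

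The labels name the shared experiment and mouse, so replicate numbers pair libraries; deviations correlated with a median r of 0.22 within experiments (8 of 9 pairs over 0.1) and -0.178 between them. Replicates were no duplicates (chi-square per degree of freedom 15.4 or more). On simulated counts for KI against wt at 48 h (20840 genes in the simulation, 100 changed at each size), 58% of 2-fold and 91% of 4-fold changes were recovered. Recovery of changes of these sizes in the members, whose intervals between KI and wt at 48 h were wide, was not tested.

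The members and gene lists were chosen with earlier results of these data known, and the AU-rich search was added later. Named genes were the members, from each list those called between KI and wt and the 2 largest called rises and falls in wt at 48 h, and the 3 of most similar pattern. Promoters are from RefSeq (GRCm38.p6), and 3′ UTRs and exons from GENCODE vM21 (GRCm38). Python 3.11 with pandas was used for these. 1 gene of the interferon-gamma target list is counted but its values are not reported here.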

Additional observations from a re-analysis of the deposited data

How the results depend on the processing

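Of the results for single members under all alternatives, none reversed its direction where it was called. The number of all genes called also depended on the fit, from 9314 to 1190 in libraries labelled KO at 48 h with the compared groups only. The number of members called moved by over 1.5 times as follows. In wt at 24 h it was 3, and 6 with DESeq2, with the compared groups only and with experiment as a replicate block, but 4 with the mouse as the block. In wt at 48 h it was 10, and 6 to 9 on leaving out a mouse. From 24 h to 48 h in wt it was 3, 1 without a filter, 1 with the compared groups only and 0 to 2 on leaving out a mouse. In KI at 24 h it was 3, 6 with the compared groups only, 5 with the experiment block and 3 with the mouse block. In KI at 48 h it was 8, and 3 to 6 on leaving out a mouse. From 24 h to 48 h in KI it was 0, 2 with DESeq2, and 1 with DESeq2 size factors, limma, no robust estimation (chosen after seeing the data) or either replicate block, by experiment or by mouse. In libraries labelled KO at 48 h it was 6, 1 with the compared groups only and 2 to 9 on leaving out a mouse. Between KI and wt at 48 h it was 0, and 1 with DESeq2 or limma. In the difference from wt at 48 h and in the response of libraries labelled KO it was 0, and 0 to 2 on leaving out a mouse. The cause of these moves was not tested. The replicate block moved no other count of members by over 1.5 times. Upper-quartile scaling shifted the median over all genes by -0.170 to -0.220 (log2) in the comparisons with naive cells, and made 41.7% to 44.9% of the calls higher there in place of 52.5% to 59.2% (42.6% for 54.5% in wt at 24 h, and 41.7% for 52.5% at 48 h). Depth limits Il2, Il3 and Csf2 in naive cells and Il3 at all times.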
